A study of Mus musculus with 8 samples.

Results

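The 9 mouse genes that encode HSP70 chaperones and their HSP110 relatives were followed in RNA from the chromatin and the cytoplasm of mouse embryonic fibroblasts, connective tissue cells taken from embryos. The genes were taken by their Ensembl identifiers, with no threshold on any measured value, out of 28785 genes listed in at least 1 library; the family itself was picked for study with earlier results of these data known. Those of the HSP70 family are Hspa1a (ENSMUSG00000091971), Hspa1b (ENSMUSG00000090877), Hspa8 (ENSMUSG00000015656), Hspa9 (ENSMUSG00000024359), Hspa2 (ENSMUSG00000059970) and Hspa1l (ENSMUSG00000007033). Those of the HSP110 family are Hsph1 (ENSMUSG00000029657), Hspa4 (ENSMUSG00000020361) and Hspa4l (ENSMUSG00000025757). All cells were labelled TSC2+/+ and C57BL/6J, so genotype and strain were the same in every group. PostHS cells were held at 42 °C for 1 h and then returned to 37 °C for 3 h, and Control cells were not heat shocked. RNA-seq was made from the chromatin of PostHS cells, the chromatin of Control cells, the cytoplasm of PostHS cells and the cytoplasm of Control cells, with 1 library each. A further 4 chromatin libraries, an m6A immunoprecipitation and an input for each condition, were not analysed here.

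HSP70 proteins bind exposed hydrophobic stretches of unfolded proteins and release them in a cycle driven by ATP. J-domain proteins start that cycle, and nucleotide exchange factors, among them the HSP110 proteins, end it by letting ADP leave. In heat-stressed mammalian cells, heat shock factor HSF1 binds heat shock elements, runs of alternating GAA and TTC units, and raises transcription of several of these genes, while others are made constantly for housekeeping.

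With 1 library per group there is no replicate spread, no test was made, and every difference describes these libraries. Values are RPKM, reads scaled to gene length and to library size. The gene length behind them is the whole gene span, introns included, so RPKM understates spliced RNA of genes with long introns relative to genes without introns. The library totals implied by the values were 19536459 reads for PostHS chromatin, 18364642 for Control chromatin, 11131382 for PostHS cytoplasm and 8292312 for Control cytoplasm. The 95% intervals reflect counting error alone, and they are exact except for a ratio between 2 ratios, where a normal approximation on the log scale of the 4 read counts was used. In bulk RNA, fewer cells with an RNA and less of that RNA per cell cannot be told apart. The files give genes by Ensembl identifier, and the reference tables paired 0 of these with a symbol, so fibroblast markers and the partner genes of these chaperones are not reported.

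The identities of the 9 genes were checked by length. The span implied by the RPKM values differed from the RefSeq span on GRCm38.p6 by less than 1% for Hspa1b (2803 against 2810 bp), Hspa4 (40644 against 40666 bp), Hspa4l (51609 against 51604 bp), Hspa9 (16944 against 16938 bp) and Hspa1l (6583 against 6526 bp). The difference was 6.04% for Hspa1a, 7.38% for Hspa8, 11.8% for Hspa2 and 12.4% for Hsph1. All 9 genes were listed in PostHS chromatin, Control chromatin and PostHS cytoplasm, and 6 in Control cytoplasm, where Hspa1a, Hspa1b and Hspa1l had no read. Together they held 0.351% of all reads in PostHS chromatin (0.348 to 0.353), against 0.0573% in Control chromatin (0.0562 to 0.0584). In PostHS cytoplasm they held 0.0889% of reads (0.0872 to 0.0907), against 0.0501% in Control cytoplasm (0.0486 to 0.0517). Of the reads of the 9 genes, Hsph1 alone held 46019 of 68496 in PostHS chromatin and 723 of 10523 in Control chromatin. In cytoplasm it held 4565 of 9900 in PostHS and 396 of 4156 in Control.

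The plot of levels by library places the 9 genes side by side. Of these genes, 7 averaged 1 RPKM or more across the 4 libraries (kept genes) and entered the comparisons across genes. Hspa2 and Hspa1l did not, and Hspa1a, Hspa1b and Hspa4l passed only through the heat-shocked libraries, so their calls were in part fixed by that filter.

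**Figure D1:**
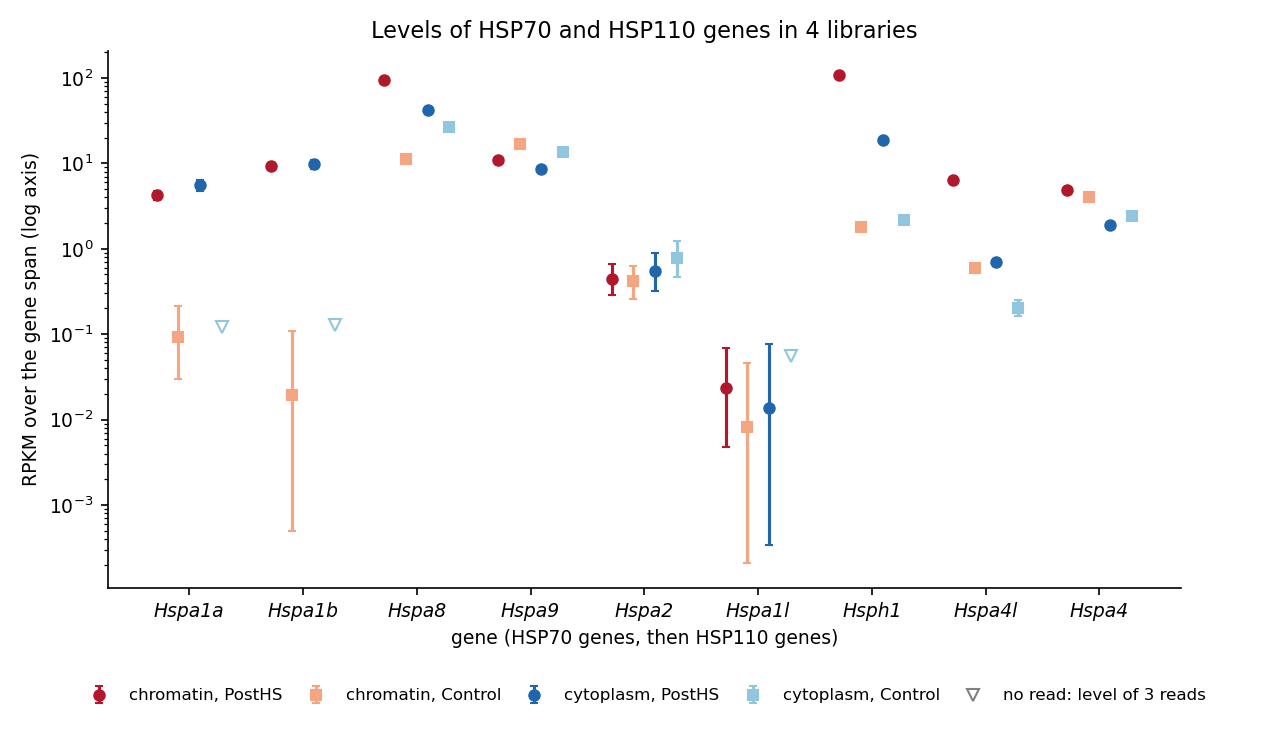
Level of each gene in RPKM over the gene span (log axis) in the 4 libraries, with PostHS as circles and Control as squares, and bars for exact 95% counting intervals; open triangles mark the level of 3 reads where a gene had none. Hsph1 and Hspa8 stand highest in PostHS chromatin at 107 and 94.7 RPKM, while the levels of Hspa4 in that library (4.82) and in Control chromatin (4.07) lie close together.

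Hspa1a and Hspa1b encode the stress-inducible HSP70 and lie on chromosome 17 in the same orientation, with starts 12918 bp apart. Their promoters are shown because both genes were higher after heat shock. These bases lie before the start, so their near-identity does not show how reads of the 2 copies can be told apart. The 250 bases before each RefSeq start (GRCm38.p6, minus strand, written 5′ to 3′) are at chr17:34972157-34972406 for Hspa1a and chr17:34959239-34959488 for Hspa1b. That of Hspa4, at chr11:53300480-53300729 on the minus strand, is given beside them as a gene with a small difference after heat shock, and 30 bases of the Hsph1 promoter, at chr5:149636351-149636380 on the minus strand, as the gene with the highest level after heat shock in chromatin. Capitals mark a heat shock element of 2 units, GAANNTTC or TTCNNGAA.
Hspa1a: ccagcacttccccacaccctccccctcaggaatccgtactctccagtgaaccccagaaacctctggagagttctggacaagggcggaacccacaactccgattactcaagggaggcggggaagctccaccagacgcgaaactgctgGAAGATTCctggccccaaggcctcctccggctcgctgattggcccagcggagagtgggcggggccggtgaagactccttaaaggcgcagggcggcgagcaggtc
Hspa1b: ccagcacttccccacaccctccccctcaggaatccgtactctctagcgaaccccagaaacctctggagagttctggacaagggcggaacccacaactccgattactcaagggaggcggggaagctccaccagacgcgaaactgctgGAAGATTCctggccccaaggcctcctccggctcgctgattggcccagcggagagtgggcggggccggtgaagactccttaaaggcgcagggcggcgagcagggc
Hspa4: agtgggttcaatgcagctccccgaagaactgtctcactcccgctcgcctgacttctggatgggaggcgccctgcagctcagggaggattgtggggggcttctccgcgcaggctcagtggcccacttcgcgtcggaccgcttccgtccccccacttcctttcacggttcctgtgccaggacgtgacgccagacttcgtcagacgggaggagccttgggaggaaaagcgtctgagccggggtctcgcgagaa
Hsph1: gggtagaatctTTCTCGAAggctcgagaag

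The promoters of Hspa1a and Hspa1b differed at 3 of 250 bases before the start and at 1 of the 50 bases after it, and the longest identical run was 201 bases. Both hold the 2-unit element 104 to 97 bases before the start and the letters CCAAT, on the minus strand of the gene, 67 to 63 bases before it. In Hsph1 the element lies 33 to 26 bases before the first of 2 RefSeq starts, at chr5:149636336. That start, and so the element, lies inside the RefSeq gene span, whose upstream end is at 149636498. The starts used for Hspa4l and Hspa2 also lie inside their RefSeq spans. For Hspa4l and Hspa2 none of the 250 bases before the outer end of the span was searched, and for Hsph1 only a part was. RefSeq promoter windows were matched for 7 of the 9 genes, all but Hspa8 and Hspa9. On either strand, the 2-unit element was present in Hspa1a, Hspa1b and Hsph1 and not in the windows of Hspa4, Hspa4l, Hspa2 and Hspa1l, and it occurs in 12.8% of 32851 RefSeq promoter windows of the same length. The 3-unit form, which extends a 2-unit one by 2 bases and another unit and so overlaps it, was in none of the 7 genes and in 0.466% of all windows. CCAAT was present in Hspa1a, Hspa1b, Hsph1, Hspa2 and Hspa1l and in 33.8% of all windows, and TATAAA in none of the 7 and in 12.4% of all windows. A match of letters is a description of the window, not evidence of binding. The sequences printed were picked in part by the values of their genes, and a link between element and response was not tested. Hspa4l, 10.9-fold higher in PostHS than in Control chromatin, had no 2-unit element in the window searched.

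In chromatin, RNA of the stress-inducible HSP70 copies was seen almost only after heat shock. Hspa1a had 4.21 RPKM (244 reads) in PostHS chromatin, against 0.0918 RPKM (5 reads) in Control chromatin, a 45.9-fold difference (19.4 to 143). Hspa1b had 9.29 RPKM (509 reads) in PostHS chromatin, against 0.0194 RPKM (1 read) in Control chromatin, a ratio of 478 with an interval of 85.5 to 18935 that shows how little 1 read fixes it. Since reads that match both copies may have been dropped or split in a way that is not given in the sources used here, the sum of both genes is the safer value. That sum was 753 reads in PostHS chromatin and 6 in Control chromatin, or 118-fold higher (53.9 to 322).

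In cytoplasm the same copies were at 0 without heat shock. Hspa1a had 5.54 RPKM (183 reads) in PostHS cytoplasm, against no read in Control cytoplasm, and was at least 45.4-fold higher when the absent gene is set at 3 reads per library. Hspa1b had 9.74 RPKM (304 reads) in PostHS cytoplasm, against no read in Control cytoplasm. It was 75.5-fold higher on the same floor, with a lower limit of 61.0. For both together, 487 reads in PostHS cytoplasm stood against 0 in Control cytoplasm, 121-fold on that floor, with a lower limit of 98.0. Among 4625 kept genes with a read in either cytoplasmic library, 82 (1.77%) had reads in PostHS cytoplasm and none in Control cytoplasm.

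The split between the copies was uneven. Hspa1b over Hspa1a was 2.21 in PostHS chromatin (1.89 to 2.58) and 1.76 in PostHS cytoplasm (1.46 to 2.12), both as RPKM ratios within a library, and the change of this ratio between the fractions was 1.26 with an interval that includes 1 (0.989 to 1.59). Even after heat shock, the level of Hspa1b per span was 0.0981 of that of Hspa8 in PostHS chromatin and 0.234 in PostHS cytoplasm. Hspa1a stood at 0.0444 of Hspa8 in PostHS chromatin and 0.133 in PostHS cytoplasm. How much of this distance comes from reads shared by the copies was not tested.

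Hspa1l, an HSP70 gene best known from spermatids, starts 547 bp from Hspa1a on the opposite strand. It had 3 reads in PostHS chromatin and 1 in Control chromatin (ratio 2.82, 0.226 to 148), and 1 read in PostHS cytoplasm against 0 in Control cytoplasm. At this depth no difference was detectable for Hspa1l, in contrast to the 244 and 183 reads of its neighbour in the heat-shocked libraries.

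Hspa8, the constitutive cognate HSP70 that also uncoats clathrin-coated vesicles, was present in all 4 libraries. It had 94.7 RPKM (7805 reads) in PostHS chromatin, against 11.3 RPKM (872 reads) in Control chromatin, 8.41-fold higher (7.84 to 9.03). In cytoplasm it had 41.7 RPKM (1957 reads) in PostHS cells, against 26.4 RPKM (923 reads) in Control cells, 1.58-fold higher (1.46 to 1.71). On the deposited scale, PostHS chromatin was the highest of the 4 libraries for this gene and Control chromatin the lowest, but with the same RPKM sum in each library Control chromatin stood above Control cytoplasm. RefSeq places 3 small nucleolar RNA genes, Snord14c, Snord14d and Snord14e, inside the span of Hspa8. Whether their reads entered the Hspa8 value was not tested.

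Hspa9, the mitochondrial HSP70 (mortalin) that drives protein import into the matrix, went the other way. It had 10.9 RPKM (3606 reads) in PostHS chromatin, against 17.0 RPKM (5304 reads) in Control chromatin, 1.56-fold lower (1.4996 to 1.6328). In PostHS cytoplasm it had 8.59 RPKM (1621 reads), against 13.6 RPKM (1908 reads) in Control cytoplasm, 1.58-fold lower (1.48 to 1.69). It was the one gene of the 7 kept whose log2 ratio lay below 0 in both fractions on all scales tried, and it did not reach 2-fold on the deposited scale in either. The span of Hspa9 also holds 2 small nucleolar RNA genes, Gm22200 and Gm26109.

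Hspa2, a testis-enriched HSP70 needed for meiosis in male mice, was low in every library. It had 0.445 RPKM (24 reads) in PostHS chromatin, against 0.414 RPKM (21 reads) in Control chromatin, and the ratio of 1.07 had an interval of 0.573 to 2.03. In PostHS cytoplasm it had 0.554 RPKM (17 reads), against 0.787 RPKM (18 reads) in Control cytoplasm, a ratio of 0.704 (0.341 to 1.45). Neither interval excludes 1, so no difference was detectable at this depth. RefSeq places the lncRNA gene 4930426I24Rik across the start of Hspa2, and reads of the overlap could belong to either gene.

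The 3 HSP110 genes, whose proteins act as nucleotide exchange factors for HSP70, gave 3 different pictures. Hsph1, the inducible member (HSP105), had 107 RPKM (46019 reads) in PostHS chromatin, against 1.78 RPKM (723 reads) in Control chromatin, 59.8-fold higher (55.6 to 64.5). In PostHS cytoplasm it had 18.6 RPKM (4565 reads), against 2.16 RPKM (396 reads) in Control cytoplasm, 8.59-fold higher (7.75 to 9.54). In both fractions the 2 conditions were far apart relative to counting error, and the ratio was larger in chromatin.

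Hspa4l, an osmotic stress-responsive relative also called APG-1, had 6.40 RPKM (6455 reads) in PostHS chromatin, against 0.590 RPKM (559 reads) in Control chromatin, 10.9-fold higher (9.95 to 11.9). In PostHS cytoplasm it had 0.691 RPKM (397 reads), against 0.203 RPKM (87 reads) in Control cytoplasm, 3.40-fold higher (2.69 to 4.34). Because its cytoplasmic levels are below 1 RPKM, the log2 ratio of RPKM + 1 was 0.49 there and did not reach 2-fold, although the plain ratio did.

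Hspa4, the constitutive HSP110 gene (APG-2), had 4.82 RPKM (3831 reads) in PostHS chromatin, against 4.07 RPKM (3037 reads) in Control chromatin, a ratio of 1.19 (1.13 to 1.24). In PostHS cytoplasm it had 1.89 RPKM (855 reads), against 2.44 RPKM (824 reads) in Control cytoplasm, 1.29-fold lower (1.17 to 1.43). Its log2 ratio of RPKM + 1 was 0.20 in chromatin and -0.25 in cytoplasm, within 0.1 of the medians of all kept genes, which were 0.12 and -0.25. The chromatin direction depended on the scale: with each library rescaled to the same RPKM sum, the log2 ratio of Hspa4 in chromatin was -0.35.

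Across genes, the log2 ratio of RPKM + 1 was set beside that of every kept gene. In chromatin 5 of the 7 kept chaperone genes were at least 2-fold higher in PostHS than in Control (Hsph1, Hspa1b, Hspa8, Hspa1a and Hspa4l), beside 10.4% of 4635 kept genes, and 0 were at least 2-fold lower, beside 4.66%. Hsph1 had rank 4 among the 4635 ratios, Hspa1b 31, Hspa8 42, Hspa1a 84 and Hspa4l 88, while Hspa4 had rank 2041 and Hspa9 4083. The median log2 ratio was 2.25 over the 7 genes and 0.12 over all kept genes, but 3 of the 7 were kept through the heat-shocked libraries alone. Of the 4 that the unstressed libraries alone would have kept, Hsph1 and Hspa8 were past 2-fold and Hspa4 and Hspa9 were not.

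In cytoplasm 1 of the 5 kept chaperone genes with reads in both libraries, Hsph1, was at least 2-fold higher in PostHS than in Control, beside 3.4% of 4505 kept genes, and 0 were at least 2-fold lower, beside 2.44%. The rank of Hsph1 was 34 of 4505, that of Hspa8 238 and that of Hspa4l 280. Hspa4 had rank 2260 and Hspa9 4095. The 5 genes had a median log2 ratio of 0.49, against -0.25 over all kept genes. The value of 0.49 is that of Hspa4l, which was kept through the heat-shocked libraries alone. The ratios of Hspa8 and Hspa4l, short of 2-fold, lay above the median of all kept genes. Hsph1 was also among the 51 genes (1.14% of 4473) at least 2-fold higher in both fractions, and no other of the 5 was.

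**Figure D2:**
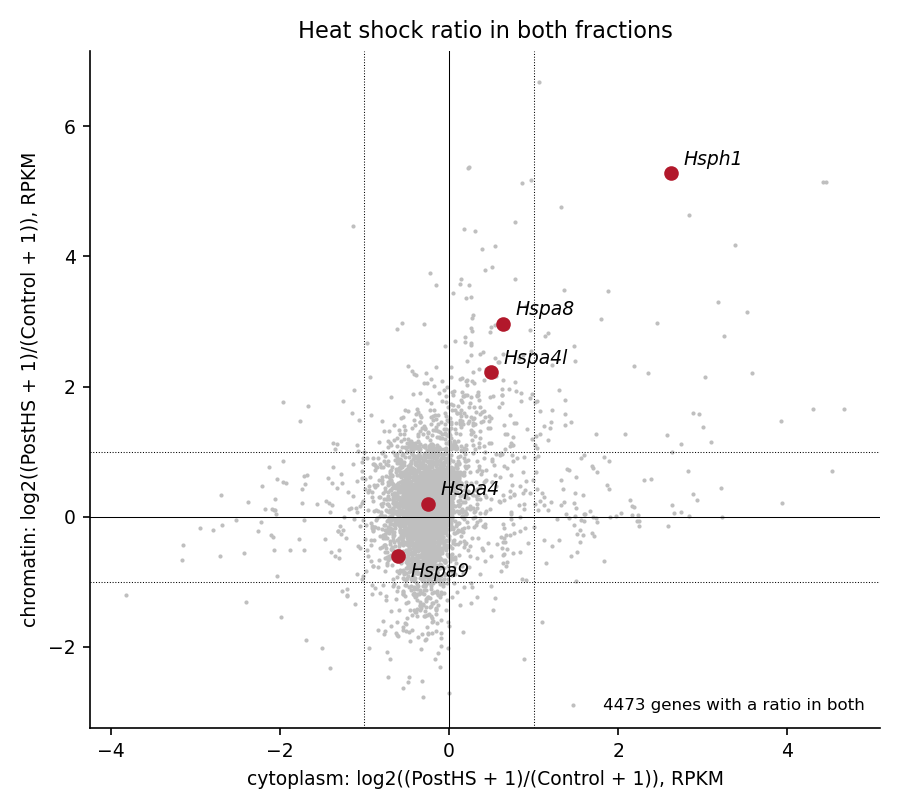
Log2 heat shock ratio of RPKM + 1 in cytoplasm (x axis) and in chromatin (y axis) for 4473 kept genes with reads in all 4 libraries (grey) and the 5 chaperone genes among them (red); dotted lines mark 2-fold. Hsph1 lies past 2-fold on both axes (2.63 and 5.27), Hspa8 and Hspa4l in chromatin alone, and Hspa4 and Hspa9 inside the dotted square.

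A part of this does not depend on how libraries are scaled, since 2 genes of the same library share its scale. Hsph1 over Hspa4, both HSP110 genes, was 22.1 in PostHS chromatin (21.4 to 22.8), against 0.438 in Control chromatin (0.403 to 0.475), as RPKM ratios. In PostHS cytoplasm the same ratio was 9.82 (9.13 to 10.6), against 0.884 in Control cytoplasm (0.782 to 0.998). Hsph1 was thus below Hspa4 per span in both Control libraries and above it in both PostHS libraries. For Hspa8 over Hspa4, the ratio was 19.6 in PostHS chromatin and 2.77 in Control chromatin, and 22.1 in PostHS cytoplasm and 10.8 in Control cytoplasm. Hspa4l over Hspa4 was 1.33 in PostHS chromatin, against 0.145 in Control chromatin, and 0.366 in PostHS cytoplasm, against 0.0832 in Control cytoplasm. Hspa9 over Hspa4 was lower after heat shock in both fractions, at 2.26 in PostHS chromatin against 4.19 in Control chromatin and 4.55 in PostHS cytoplasm against 5.55 in Control cytoplasm.

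The response of each gene was then compared between the fractions. The heat shock fold in chromatin divided by that in cytoplasm was 6.97 for Hsph1 (6.14 to 7.90), 5.33 for Hspa8 (4.80 to 5.92), 3.19 for Hspa4l (2.49 to 4.09) and 1.53 for Hspa4 (1.38 to 1.71). For Hspa9 it was 1.01 (0.933 to 1.09), and for Hspa2 1.53 (0.631 to 3.70). Hsph1, Hspa8 and Hspa4l had log2 ratios at least 1 unit higher in chromatin than in cytoplasm, 3 of 5 genes, beside 16.5% of 4473 kept genes, and 0 of 5 had the opposite, beside 4.52%. Hspa4l was kept through the heat-shocked libraries alone, so its call was in part fixed by that filter. The differences of Hsph1, Hspa8 and Hspa4l were 2.64, 2.33 and 1.73, with ranks 46, 81 and 193 of 4473. These 3 differences stayed above 1 on each of the 3 other scales, while with a pseudocount of 5 RPKM that of Hspa4l was 0.90. The difference of Hspa9 was 0.0022 on the deposited scale and between -0.46 and -0.37 on the other scales. For Hspa1a and Hspa1b no such ratio exists, since Control cytoplasm had no read. Their summed fold was 118 in chromatin, with its wide interval of 53.9 to 322. In cytoplasm it was 121 with the absent genes set at 3 reads, and the 95% lower counting limit was 98.0.

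Set as chromatin against cytoplasm, the genes fell in a different order in each condition. After heat shock Hspa4l was 9.26-fold higher in chromatin than in cytoplasm (8.37 to 10.3), Hsph1 5.74-fold (5.57 to 5.92), Hspa4 2.55-fold (2.37 to 2.75), Hspa8 2.27-fold (2.16 to 2.39) and Hspa9 1.27-fold (1.20 to 1.34). Hspa1b had a ratio of 0.954 (0.826 to 1.10) and Hspa1a was 1.32-fold lower in chromatin (1.08 to 1.60). Those 2 inducible copies stood lowest of the 7 kept genes. All these values count the whole gene span, introns included, and how far intron reads enter the ratios was not tested. Directions near 1 depended on the scale: with the same RPKM sum the log2 ratio was 0.71 for Hspa1a and 1.07 for Hspa1b, and centring on the median gene turned that of Hspa9 to -0.61. At least 2-fold higher in PostHS chromatin than in PostHS cytoplasm were 4 of 7, beside 45.8% of 4575 kept genes, a share near the background, and 0 of 7 were at least 2-fold lower, beside 6.93%.

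Without heat shock, Hspa8 was 2.34-fold lower in chromatin than in cytoplasm (2.13 to 2.57), and Hsph1 1.21-fold lower (1.07 to 1.37), on the deposited scale. With both libraries rescaled to the same RPKM sum these 2 directions turned, to log2 ratios of 0.42 and 1.00. Hspa4l was 2.90-fold higher in Control chromatin than in Control cytoplasm (2.31 to 3.68), Hspa4 1.66-fold (1.54 to 1.80) and Hspa9 1.26-fold (1.19 to 1.32), and centring on the median gene turned all 3 below 0. On the log2 scale of RPKM + 1, 0 of 5 genes were 2-fold or more higher in Control chromatin, beside 32.4% of 4512 kept genes, and 1 of 5, Hspa8, at least 2-fold lower, beside 11.7%. Relative to Hspa4 in the same libraries, the chromatin to cytoplasm ratio of Hspa8 was 0.890 after heat shock (0.814 to 0.973) and 0.256 without it (0.227 to 0.289), and that of Hsph1 was 2.25 (2.08 to 2.44) and 0.495 (0.429 to 0.572). For Hspa9 it was 0.496 after heat shock (0.452 to 0.546) and 0.754 without it (0.687 to 0.828), although on the deposited scale its own ratio was 1.27 after heat shock and 1.26 without it.

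**Figure D3:**
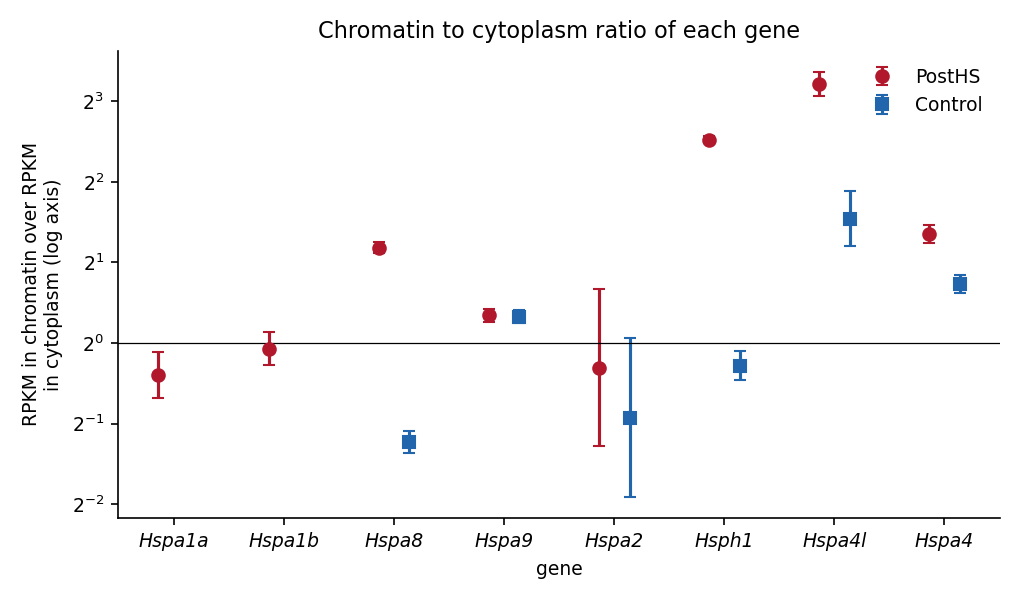
Ratio of RPKM in chromatin over RPKM in cytoplasm (log axis) for each gene after heat shock (PostHS, circles) and without it (Control, squares), with exact 95% counting intervals; Hspa1a and Hspa1b have no Control value because Control cytoplasm held no read of either. Hspa8 stands at 2.27 after heat shock and 0.427 without it and Hsph1 at 5.74 and 0.824, while the 2 values of Hspa9 overlap on this, the deposited, scale.

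Within each library the genes were ordered by level per span. In PostHS chromatin the order was Hsph1 (107 RPKM, 105.7 to 107.6), Hspa8 (94.7, 92.6 to 96.9), Hspa9 (10.9), Hspa1b (9.29), Hspa4l (6.40), Hspa4 (4.82, 4.67 to 4.98), Hspa1a (4.21, 3.70 to 4.77), Hspa2 and Hspa1l, and among these neighbours the counting intervals of Hspa4 and Hspa1a overlapped. In Control chromatin it was Hspa9 (17.0), Hspa8 (11.3), Hspa4 (4.07), Hsph1 (1.78), Hspa4l (0.590, 0.542 to 0.641) and Hspa2 (0.414, 0.257 to 0.634), the last pair overlapping, and then Hspa1a, Hspa1b and Hspa1l at 5 reads or fewer. Hsph1, which stood below Hspa4 in Control chromatin, headed the list in PostHS chromatin.

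In PostHS cytoplasm the order was Hspa8 (41.7 RPKM), Hsph1 (18.6), Hspa1b (9.74, 8.68 to 10.9), Hspa9 (8.59, 8.18 to 9.02), Hspa1a (5.54), Hspa4 (1.89), Hspa4l (0.691), Hspa2 (0.554) and Hspa1l, where Hspa1b overlapped Hspa9 and Hspa4l overlapped Hspa2. In Control cytoplasm it was Hspa8 (26.4), Hspa9 (13.6), Hspa4 (2.44, 2.28 to 2.62), Hsph1 (2.16, 1.95 to 2.39), Hspa2 (0.787) and Hspa4l (0.203), with Hspa4 and Hsph1 overlapping. Hspa8 headed both cytoplasmic libraries per span. In reads, Hsph1 (4565) stood above Hspa8 (1957) in PostHS cytoplasm, and Hspa9 (1908) above Hspa8 (923) in Control cytoplasm.

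These orders per span change the make-up of the family by RPKM. HSP110 genes held 49.6% of the summed RPKM of the 9 genes in PostHS chromatin, against 18.3% in Control chromatin, and 24.2% in PostHS cytoplasm, against 10.6% in Control cytoplasm. Hspa1a and Hspa1b together held 5.69% in PostHS chromatin, against 0.315% in Control chromatin, and 17.5% in PostHS cytoplasm, against no read in Control cytoplasm. The share of Hspa9 was smaller after heat shock, with 4.59% in PostHS chromatin against 48.3% in Control chromatin and 9.85% in PostHS cytoplasm against 29.8% in Control cytoplasm. Hspa8 held 39.9% in PostHS chromatin and 31.9% in Control chromatin, and 47.8% in PostHS cytoplasm and 57.9% in Control cytoplasm. The summed RPKM was 237 in PostHS chromatin and 35.3 in Control chromatin, and 87.3 in PostHS cytoplasm and 45.6 in Control cytoplasm. Shares of reads, which are not scaled to span, were different. HSP110 genes held 82.2% of the reads of the 9 genes in PostHS chromatin, against 41.0% in Control chromatin. In PostHS cytoplasm they held 58.8% of reads, against 31.4% in Control cytoplasm. Of the reads in PostHS cytoplasm, Hspa8 held 19.8% and Hspa1a with Hspa1b 4.92%.

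**Figure D4:**
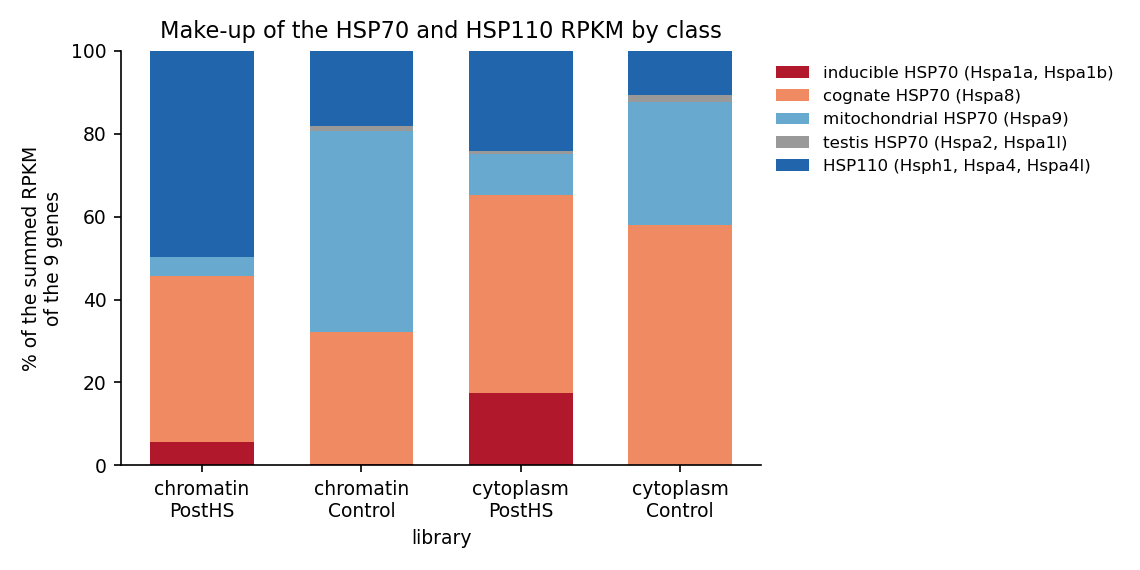
Share of the summed RPKM of the 9 genes held by each class (stacked bars, per cent) in the 4 libraries. RPKM is scaled to the whole gene span, introns included, and shares of reads are different. HSP110 genes take 49.6% in PostHS chromatin and 18.3% in Control chromatin, and the inducible copies Hspa1a and Hspa1b appear in both PostHS libraries, with 5.69% in chromatin and 17.5% in cytoplasm.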

How the data were processed

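The deposited files hold RPKM values per Ensembl gene, made by the authors, with genes without a read left out. Cutadapt, STAR and GRCm38 are named, without versions, per the submitters' processing notes. Not given in the sources used here are the counter, the release of the gene annotation, the use of strand and the fate of multi-mapping reads. Groups came from sample titles. Library totals, reads and spans were recovered from the RPKM values as whole numbers that give every value within a relative error of 1e-12 (0 genes exceeded it). The recovered reads summed to 98.4% to 99.7% of the totals. The recovery and the 2-fold rule were tested on simulated data with counting error alone. For the 2-fold rule only genes well above 1 RPKM were changed. Low values, such as those of Hspa4l in cytoplasm, were thus not covered.

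Log2 ratios, which a pseudocount of 1 RPKM shrinks for low genes, were taken over 4688 genes with a mean of at least 1 RPKM. Genes with no read in a compared library got no ratio. Folds of single genes are plain RPKM ratios with exact Clopper-Pearson intervals, RPKM values have exact Poisson intervals, and the floor is 3 reads. All 9 genes are described. Alternatives changed the pseudocount, the filter, the scale and the fold. Partner gene lists, cell type markers and most similar genes were planned and are not reported, since no identifier was paired with a symbol, nor are shared sequence windows or protein identities. Promoters are RefSeq sequences. The family, the lists and the comparisons were chosen with earlier results of these data known, and its members by identifier. Python 3.11.15, numpy 2.4.6, pandas 2.3.3, scipy 1.17.1 and matplotlib 3.10.9 were used.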

Additional observations from a re-analysis of the deposited data

Results flagged for a closer look

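Hspa4 and Hspa2 had log2 heat shock ratios above 0 in chromatin and below 0 in cytoplasm. The difference, chromatin minus cytoplasm, was 0.45 for Hspa4 (0.20 and -0.25) and 0.23 for Hspa2 (0.03 and -0.20). The median difference over all kept genes was 0.37. With 1 library per group neither difference was tested. With each library rescaled to the same RPKM sum, the chromatin ratio of Hspa4 was -0.35 and its difference 0.0042, and the difference was 0.086 with the median set to 0 and 0.092 with the 10 highest genes left out of the scale. The difference of Hspa2 was -0.011 with the same RPKM sum and -0.14 with the median set to 0, and the counting intervals of Hspa2 include 1 in both fractions.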

How the results depend on the processing

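On the deposited scale, 5 of 7 chaperone genes were past 2-fold higher in PostHS chromatin, beside 10.4% of 4635 kept genes, and 0 lower, beside 4.66%. In PostHS cytoplasm 1 of 5 was higher, beside 3.4% of 4505, and 0 lower, beside 2.44%. Hspa1a and Hspa1b, with 183 and 304 reads in PostHS cytoplasm and none in Control cytoplasm, had no ratio there and were not counted. In chromatin the higher count was 4 with a pseudocount of 5 RPKM, beside 170 of 4635 kept genes. It was 2 with a mean of at least 5 RPKM, beside 205 of 763, a filter that left 3 of the 9 genes. The lower count was 1, Hspa9, with the same RPKM sum, with the 10 highest genes left out of the scale and at 1.5-fold. Under these settings 832, 601 and 572 of 4635 kept genes were lower. In cytoplasm the higher count was 2 with a pseudocount of 0.1 RPKM and at 1.5-fold, beside 236 and 256 of 4505 kept genes. The lower count there was 1 at 1.5-fold, beside 452. For chromatin against cytoplasm after heat shock, 4 of 7 genes were higher, beside 2096 of 4575 kept genes, and 0 lower, beside 317. With the same RPKM sum 6 were higher, but so were 3469 of the 4575. The higher count was 3 with a pseudocount of 5 RPKM, beside 325, and 2 with a mean of at least 5 RPKM, beside 266 of 761. With the median set to 0 it was 2, beside 392 of 4575, and the lower count was 1, beside 781. For the response of chromatin minus cytoplasm, 3 of 5 genes were higher, beside 737 of 4473 kept genes. The count was 2 with a pseudocount of 5 RPKM, beside 228, and 2 with a mean of at least 5 RPKM, beside 302 of 752. For chromatin against cytoplasm without heat shock, 0 of 5 were higher, beside 1460 of 4512 kept genes, and 1 lower, beside 529. With a pseudocount of 0.1 RPKM 1 was higher, beside 2163, and with 5 RPKM 0 were lower, beside 288. With the same RPKM sum 3 were higher, beside 3334, and 0 lower, beside 169. With the 10 highest genes left out 1 was higher, beside 2175, and 0 lower, beside 382. The called direction of Hspa8 without heat shock reversed with the same RPKM sum, to a log2 ratio of 0.42. Of 235 values of single genes recomputed, that was the 1 called value to reverse, 97 others moved by more than the counting interval and 137 did not. These 137 include every value under a changed filter, since a filter cannot alter the ratio of a single gene. Values that were not called also changed sign, among them the chromatin minus cytoplasm difference of Hspa9, under 4 settings. Apart from the scales, filters and thresholds named, the cause of these changes was not tested. The heat shock log2 ratios of Hsph1 stayed between 4.04 and 5.83 in chromatin and between 1.72 and 3.04 in cytoplasm over these settings. Reads limit Hspa1l and Hspa2 in every library, and Hspa1a and Hspa1b in the Control libraries. No paired analysis was possible because each group has 1 library.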
